A study of Oryza sativa with 58 samples.

Results

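A set of 200 rice genes had transcripts in 2 Xian varieties, MH63 and ZS97, and practically no signal in the Geng variety Nip. They were chosen from the 57174 genes that the 24 libraries of these varieties list by MH63 identifiers. A gene qualified with 0.1 FPKM or less in all 8 Nip libraries and a mean above 1 FPKM in at least 1 tissue of both MH63 and ZS97. FPKM is a level of sequenced fragments scaled to the length of the transcript and to the mapped fragments of the library. Of the 443 genes that qualified, the 200 with the highest score were kept, where the score is the lower of the highest tissue means of MH63 and ZS97. These values chose the members, so the contrast between the Xian varieties and Nip is given below as a description, without a test.

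Xian (indica) and Geng (japonica) are the main subspecies of Asian cultivated rice. Minghui 63 (MH63) and ZhenShan97 (ZS97) are Xian lines known as the parents of a widely grown hybrid, and Nipponbare (Nip) is the Geng variety of the standard rice reference genome. Genomes of the subspecies differ in gene content as well as in sequence, so a gene model of one variety may have a diverged copy in another or none. The identifiers of the members are not paired with gene names in the sources used here, and members are called by identifier and described by where they were expressed. The digits after MH in an identifier give the chromosome.

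RNA-Seq of inbred plants without treatment was compared, with 2 libraries per tissue in MH63, ZS97 and Nip, the tissues being young leaf, panicle, root and mature leaf. Young leaves came from seedlings of 2 weeks and roots from seedlings of 1 week, both raised in a growth chamber, and panicles of 1.5 to 4.5 cm and flag leaves at floral induction came from the field. The labels do not say whether replicates were separate plants or harvests, and p-values measure the spread between these libraries only. The other 34 libraries of the series, young leaf of 17 varieties listed under other identifiers, were not used here. The tissue labels were not checked against marker genes, because the identifiers carry no names.

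The depth of a library relative to the first MH63 young leaf library, read from the steps between its lowest values, was 0.307 to 1.88 in MH63, 0.176 to 1.43 in ZS97 and 0.231 to 0.934 in Nip. Between 16067 and 19514 genes per library were above 1 FPKM, and the FPKM sums ranged from 458020 to 1512107. The first ZS97 panicle library, at 0.176, was the shallowest. It was the highest of the 16 MH63 and ZS97 libraries for 37 members (18.5%), against 9.75% of the other 17018 genes that reached the lowest member score, and 77 members were listed at 0 in it. Without it, 1 member no longer met both limits and 195 were still among the top 200. The value columns are numbered without gaps, from 1 to 14 in the MH63 libraries and the young leaf, panicle and root libraries of ZS97, and from 1 to 10 in the Nip libraries and ZS97 mature leaf, as joint runs of the quantification would number them. ZS97 mature leaf thus shared its numbering with Nip, and 144 members were above 1 FPKM on average there, against 142 in MH63 mature leaf. The rule itself fixes this count at 0 in Nip mature leaf. The part of the shared numbering in the Nip signal was not tested.

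The absence of signal in Nip was nearly complete. A total of 167 members were listed at 0 in all 8 Nip libraries, and 33 were above 0 in at least 1 of them, 16 of these in exactly 1. Of the 54 Nip values above 0, 34 came from root, whose relative depths of 0.909 and 0.934 were the highest among the Nip libraries. The highest was 0.0994 FPKM. An exact 0 in a file of FPKM values can be a failed estimate, and 25198 of all listed genes (44.1%) were at 0 in all 8 Nip libraries, so such members are called listed at 0 rather than silent.

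**Figure D1:**
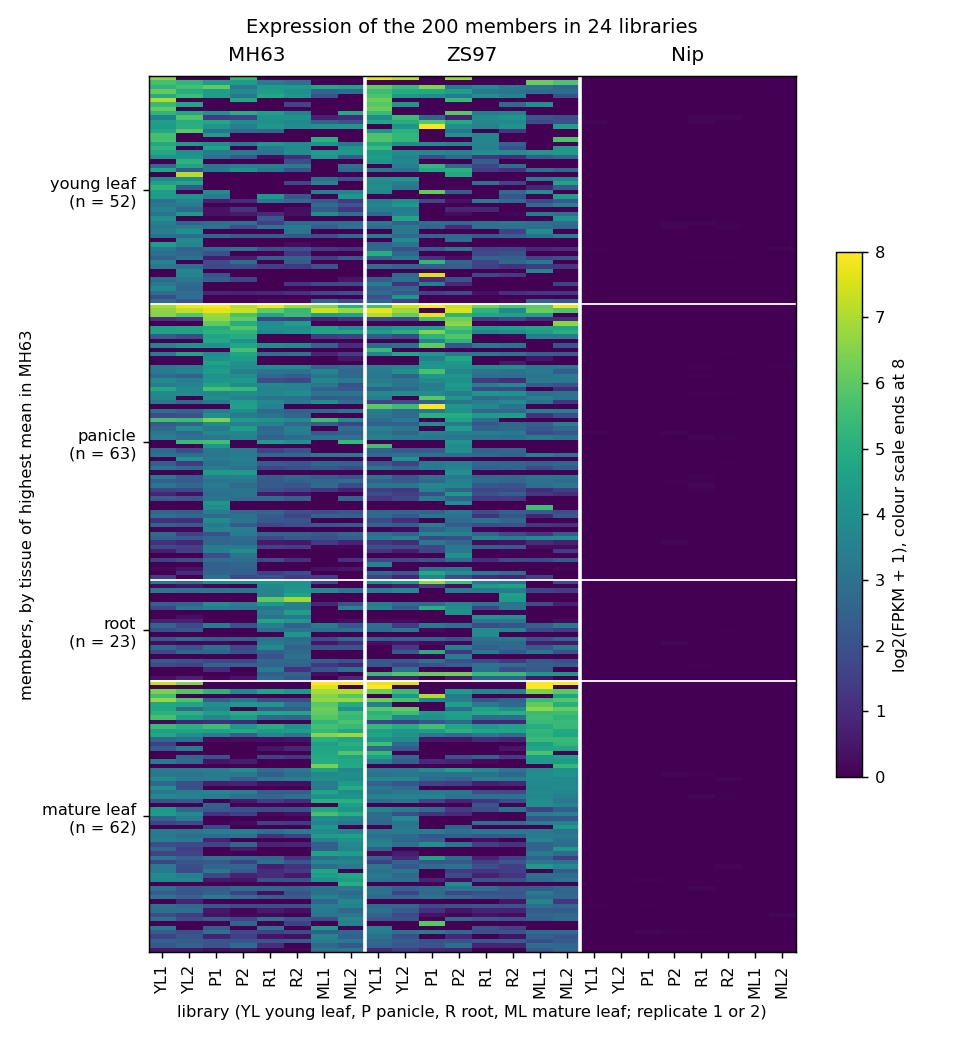
Expression of the 200 members on a log2(FPKM + 1) colour scale that ends at 8, with 1 column per library (MH63, ZS97, Nip) and 1 line per member, grouped by the tissue of its highest mean in MH63 and ordered by score within a group. Members vary from library to library in MH63 and ZS97, and no Nip value exceeds 0.0994 FPKM.

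Most genes that were expressed at or above the members' lowest level in MH63 and ZS97 had signal in Nip, although as a set they were also expressed more highly than the members in MH63 and ZS97. Among all genes that reached the lowest member score of 4.43 FPKM, 13741 (79.8%) exceeded 10 FPKM in at least 1 Nip library. The counts were smaller at lower Nip levels, with 120 genes whose highest Nip value was between 1 and 2 FPKM, 66 between 0.5 and 1, 61 between 0.2 and 0.5 and 43 between 0.1 and 0.2. They were 33 between 0 and 0.1 and 167 at 0. More genes were thus listed at 0 throughout Nip than lay between 0 and 0.1 FPKM. A gene for which 1 fragment is worth more than 0.1 FPKM cannot fall in that class. For 118 members (59%), the smallest value above 0 exceeded 1 FPKM. From the lowest to the median member score, this held for 48% of members and 34.1% of other genes. The part of such steps and of depth in the gap was not tested. Just inside the Nip limit, MH10g0175300 reached 0.0994 and MH07g0088800 reached 0.0983 FPKM in their highest Nip library. Just outside, MH12g0368200 reached 0.104 and MH01g0031000 reached 0.111 FPKM.

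**Figure D2:**
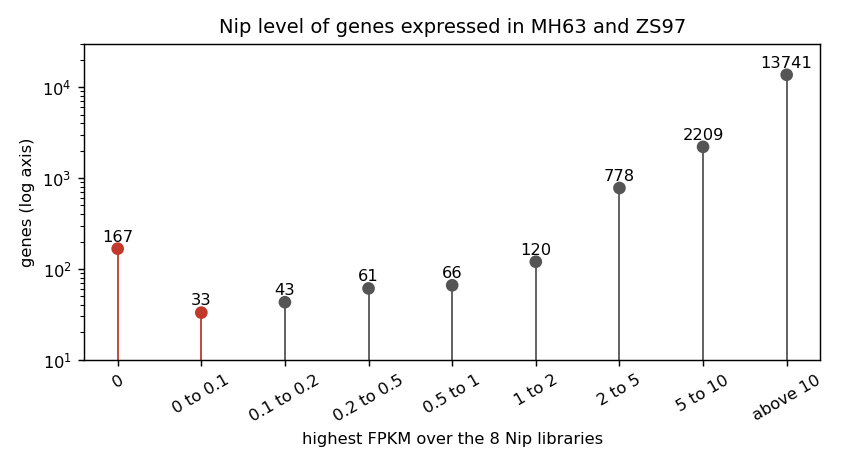
Number of genes (log axis) by their highest FPKM over the 8 Nip libraries, for all genes that reached the lowest member score of 4.43 FPKM in MH63 and ZS97. The members are the first 2 classes (167 and 33 genes, red), and the count is lowest between 0 and 0.1 FPKM.

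The same limits with the varieties exchanged gave smaller numbers. With Nip as the variety without signal, 0.775% of all listed genes qualified, with ZS97 in the place of Nip 0.472%, and with MH63 in its place 0.243%. The gene models are those of MH63. A read from ZS97 or Nip with no match in these models adds nothing to the values, and the part of this in the 3 shares was not tested.

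The members were moderately expressed. The score ranged from 4.43 to 441 FPKM with a median of 8.92, against a median of 24.4 for the other 17018 genes. There were 3 members above 100 FPKM, 43 between 20 and 100, 48 between 10 and 20, and 106 at 10 or less. At the lower end, MH12g0372400 scored 4.48 and MH12g0043100 scored 4.43 as the last members, while MH10g0042900 at 4.42 and MH07g0362400 at 4.39 were left out.

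The member with the highest score, MH02g0485000, was a leaf gene in both Xian varieties. It had 484 and 556 FPKM in MH63 mature leaf, against 434 and 449 FPKM in ZS97 mature leaf. In young leaf it had 163 and 92.5 FPKM in MH63, against 217 and 188 FPKM in ZS97. Panicle and root stayed at 0.113 FPKM or below in both varieties. In Nip, 7 libraries were listed at 0 and the second panicle library had 0.0663 FPKM. The leaf levels of MH63 and ZS97 did not pass the test in either leaf (limma adjusted p = 0.0859 in young leaf and 0.531 in mature leaf), while the groups did not overlap in either.

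MH05g0422100 and MH09g0294500, next by score, had signal in every tissue of both Xian varieties. MH05g0422100 ranged from 32.0 to 370.2 FPKM over the 8 MH63 libraries, against 46.7 to 905 FPKM over the 8 ZS97 libraries, and was listed at 0 throughout Nip. The 905 FPKM came from the shallowest library, the first of ZS97 panicle, and the second had 151.2 FPKM. MH09g0294500 averaged 182 FPKM in MH63 panicle, where both libraries were above 100 FPKM, against 0 and 186 FPKM in ZS97 panicle, with the 0 in the same shallow library. MH07g0101400 had 109.6 and 51.1 FPKM in MH63 panicle, against 212 and 34.8 FPKM in ZS97 panicle. MH01g0425100 was highest in mature leaf, with 116 and 130.5 FPKM in MH63, against 85.4 and 61.8 FPKM in ZS97. These genes had high FPKM in most libraries and wide gaps between replicates. High FPKM can still rest on few fragments. Of their values above 0, 6 of 16 for MH05g0422100 and 7 of 15 for MH09g0294500 equalled that of another gene in the same library. In 8 libraries, MH09g0294500 was only 1 to 10 times MH04g0578800, whose values, described below, may be as few as 1 fragment.

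Other high scores rested on single libraries. MH01g0724200, the fourth by score, had 191 and 0 FPKM in MH63 mature leaf, against 1105 and 0 FPKM in ZS97 mature leaf. Its only other value above 0 was 343 FPKM in the first ZS97 young leaf library. MH05g0288400, the seventh, had 91.3 and 58.4 FPKM in MH63 mature leaf, against 0 and 23.4 FPKM in ZS97 mature leaf, and 130.4 and 8.18 FPKM in ZS97 panicle. Values of this kind, high in 1 library and absent from its replicate, were common among the members. In 81 members (40.5%), at least 1 of the 8 Xian groups had 1 replicate at 0 and the other above 1 FPKM, which held for 4.31% of the other genes at or above the lowest member score. Among genes from the lowest to the median member score, it held for 39% of 100 members and 8.27% of 2818 other genes. The values themselves came in steps more often than those of other genes. For a short or rarely read gene, FPKM values are whole multiples of what 1 fragment is worth, and genes of equal length then share a value to every printed digit. Of the 2365 Xian values of members above 0, 607 (25.7%) were shared with another gene of the same library. Among genes from the lowest to the median member score, the share was 26% for members and 8.43% for other genes. In 68 members (34%), at least as many values were shared as were not. Shared were 6 of the 7 values of MH05g0288400 above 0 and 2 of the 3 of MH01g0724200, against 0 of 12 for MH02g0485000. By group, members split between replicates numbered from 13 in ZS97 root to 33 in ZS97 panicle, the group with the shallowest library.

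The members were also expressed in fewer tissues than other genes of their level. In all 8 Xian groups, 79 members (39.5%) had a mean above 1 FPKM, against 69.8% of the other genes, and 30 members (15%) passed 1 FPKM in only 2 groups, against 3.09%. In the range from the lowest to the median member score, 32% of members and 43.4% of other genes were above 1 FPKM in all 8 groups. The tissue of the highest mean was the same in MH63 and ZS97 for 132 members (66%), against 77.5% of the other genes. These shares are descriptions, since the same libraries chose the members.

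Panicle and leaf held most of the maxima, as they did among other genes. In MH63, the highest mean was in panicle for 63 members, in mature leaf for 62, in young leaf for 52 and in root for 23. In ZS97, it was in panicle for 78 members, in mature leaf for 54, in young leaf for 52 and in root for 16. Root was thus the maximum of 11.5% of the members in MH63 and 8% in ZS97, against 24.4% and 25.6% of the other genes at or above the lowest member score. From the lowest to the median member score, it was 18% of members and 26.3% of other genes in MH63, and 11% of members and 26.9% of other genes in ZS97. In the same range, panicle held 32% of members and 30.3% of other genes in MH63, and 42% and 33.9% in ZS97. Mature leaf held 27% and 23.2% in MH63, and 22% and 16.5% in ZS97. Young leaf held 23% and 20.2% in MH63, and 25% and 22.7% in ZS97. The ZS97 panicle means include the shallowest library, which was the highest of all for 37 members. Both varieties had the maximum in panicle for 49 members, in mature leaf for 40, in young leaf for 31 and in root for 12.

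To describe tissue expression, each tissue was compared with each of the others in 1 limma fit of the 16 MH63 and ZS97 libraries on log2(FPKM + 1). Calls were made where the log2 fold change exceeded 1.5 and p, adjusted after Benjamini and Hochberg over all genes tested, was under 0.05, and a gene was enriched in a tissue when it was called against all 3 others in both varieties. Enriched in this way were 8 members in panicle, 5 in root, 4 in mature leaf and 3 in young leaf. Over all 24461 genes tested, the shares were 1.16% for young leaf, 3.02% for panicle, 3.75% for root and 3.21% for mature leaf, and the counts of members, out of 200, were near these shares. The tissue means that are compared here also scored the members, and some members met the limits only through the tissue in which they were enriched, so the counts are descriptions and no p-value is given. In bulk tissue, more cells of a type and more RNA per cell cannot be told apart.

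Of the 8 panicle-enriched members, the 3 with the largest differences to the next tissue were low or at 0 outside the panicle. MH11g0617100 had 98.6 and 67.5 FPKM in MH63 panicle, against 46.6 and 75.0 FPKM in ZS97 panicle, and stayed between 0.719 and 2.73 FPKM in the other tissues of both varieties. Its smallest log2 fold change over another tissue was 4.83 in MH63 and 4.06 in ZS97. MH04g0589000 had 27.5 and 16.4 FPKM in MH63 panicle, against 11.4 and 35.3 FPKM in ZS97 panicle, and was listed at 0 in the other 12 Xian libraries. MH05g0191400 had 23.2 and 15.7 FPKM in MH63 panicle, against 16 and 18.2 FPKM in ZS97 panicle, with 0.459 FPKM in the second ZS97 root library as its only other value above 0. All 3 were at 0 throughout Nip.

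Of the 5 root-enriched members, 3 are described. MH07g0284100 had 12.1 and 15.4 FPKM in MH63 root, against 19.3 and 24 FPKM in ZS97 root. MH01g0076000 had 7.51 and 8.09 FPKM in MH63 root, against 17 and 15.4 FPKM in ZS97 root. MH07g0411800 went the other way, with 24.6 and 19.4 FPKM in MH63 root, against 7.41 and 8.03 FPKM in ZS97 root. The root values of the 2 varieties did not overlap in any of these 3 genes, and none was called between MH63 and ZS97 in root at the log2 limit of 1.5. The difference between varieties varied with tissue for MH01g0076000 and MH07g0411800 by an interaction test. Both met the limits of the 2 varieties through root alone, so the p-values are not given here as evidence of a difference.

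Among leaf members, MH07g0024600 had the largest difference to the next tissue among the 4 enriched in mature leaf, taking the lower of the 2 varieties. It had 37.6 and 52.0 FPKM in MH63 mature leaf, against 40.2 and 40.5 FPKM in ZS97 mature leaf, and 0 to 1.05 FPKM in the other MH63 tissues, against 0.814 to 5.6 FPKM in the other ZS97 tissues. MH05g0370000 had 23.7 and 20.8 FPKM in MH63 mature leaf, against 9.15 and 6.13 FPKM in ZS97 mature leaf. It also had 1.95 and 2.14 FPKM in MH63 young leaf, against 0.149 and 0.516 FPKM in ZS97 young leaf, and was listed at 0 in panicle and root of both. MH04g0191800 had 5.11 and 12.7 FPKM in MH63 mature leaf, against 11.4 and 1.43 FPKM in ZS97 mature leaf, and its ZS97 call was lost in 2 of 21 alternatives.

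The young leaf members were low and confined to that tissue in nearly every library. MH03g0359900 had 19.9 and 12.1 FPKM in MH63 young leaf, against 4.86 and 7.67 FPKM in ZS97 young leaf, and its only other value was 0.208 FPKM in the second MH63 root library. MH02g0073600 had 12 and 5.05 FPKM in MH63 young leaf, against 4.47 and 5.24 FPKM in ZS97 young leaf. MH06g0074800 had 2.62 and 6.51 FPKM in MH63 young leaf, against 2.92 and 18 FPKM in ZS97 young leaf, and its MH63 call was lost in 1 of 21 alternatives. The last 2 were listed at 0 in the other 12 Xian libraries and in all of Nip, and each of their 4 values above 0 was shared with another gene of the library.

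A smaller group was steady. Of the 79 members above 1 FPKM in all 8 Xian groups, 9 had group means within 1 log2 unit of each other, and the median range was 1.72 log2 units. MH02g0219000 was the steadiest, with group means from 4.82 to 7.59 FPKM, a range of 0.56 log2 units. MH11g0529800 ranged from 7.48 to 11.9 FPKM, MH03g0108200 from 5.25 to 8.68 FPKM, and MH02g0234900 from 5.29 to 9.24 FPKM. In Nip, MH11g0529800 and MH03g0108200 were listed at 0 in all 8 libraries, MH02g0219000 had 0.0686 FPKM in 1 root library, and MH02g0234900 had 0.0695 and 0.0441 FPKM in root. These 4 genes had signal in all 16 Xian libraries.

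**Figure D3:**
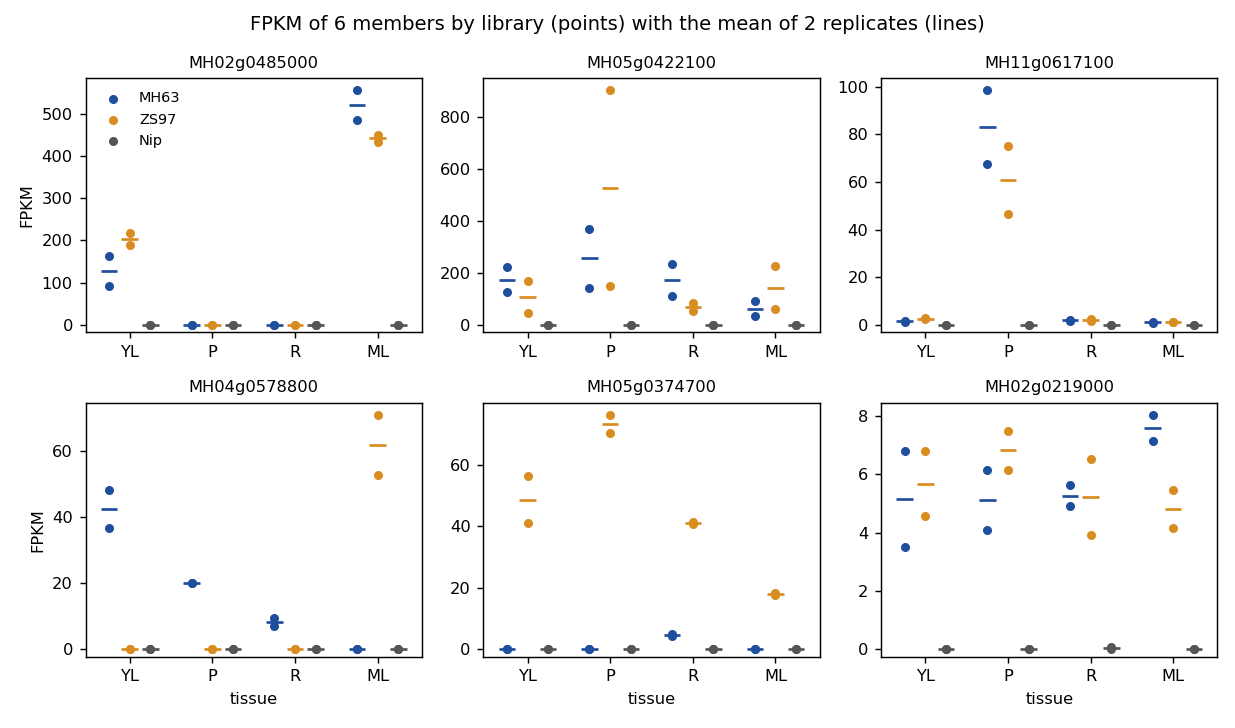
FPKM of 6 members by tissue (YL young leaf, P panicle, R root, ML mature leaf), with 1 point per library, a line at the mean of 2 replicates, and MH63, ZS97 and Nip from left to right in each tissue. MH02g0485000 is expressed in leaves, MH11g0617100 in panicle and MH02g0219000 in every tissue, MH04g0578800 is at 0 in opposite tissues of MH63 and ZS97 with single steps of the scale elsewhere, and Nip is at or near 0 in all panels.

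MH63 and ZS97 were then compared within each tissue in the same fit, a contrast that the rule did not use, although it required expression in both varieties. In young leaf, 3 members were higher and 3 lower in MH63 than in ZS97, against 2.47% and 1.37% of all genes tested. In panicle, 2 were higher and 2 lower (2.07% and 1.54% of all genes), and in root 4 were higher and 3 lower (2.25% and 1.01%). In mature leaf, 10 were higher and 5 lower (4.7% and 2.47%). ZS97 mature leaf shares its column numbering with Nip, and MH63 mature leaf does not. Variety and separate quantification thus cannot be told apart in mature leaf, which holds for every mature leaf contrast and interaction below. The median log2 fold change over the members was 0 in each of the 4 tissues. In all, 19 members (9.5%) were called in at least 1 tissue, against 11% of all genes, with 12 in 1 tissue, 4 in 2 tissues and 3 in all 4. The panicle counts depended on single libraries, with 13 higher and 7 lower without the second ZS97 panicle library (2.96% and 3.25% of all genes), and 1 higher and 5 lower without the first (2.04% and 1.38%).

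**Figure D4:**
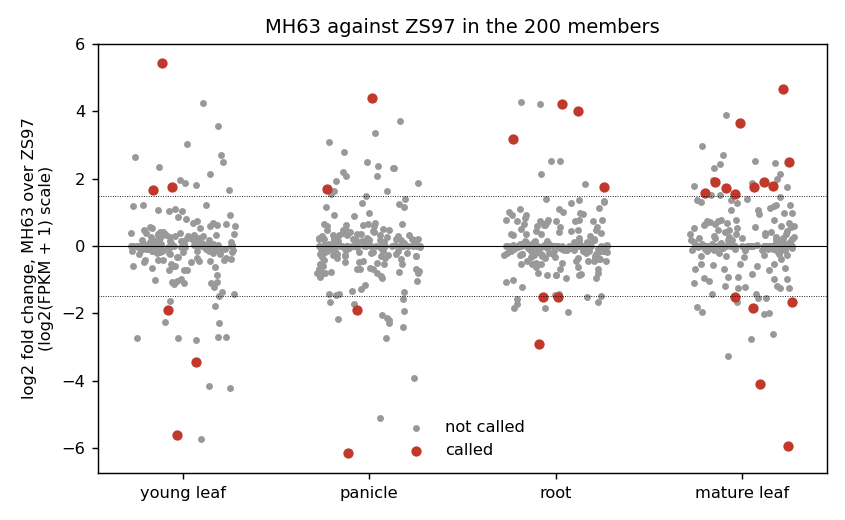
Log2 fold change of MH63 over ZS97 on the log2(FPKM + 1) scale for each of the 200 members in 4 tissues, with called members in red and the limits of 1.5 as dotted lines. Most members lie near 0, and several differences beyond the limits were not called.

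MH05g0374700 was lower in MH63 than in ZS97 in every tissue. It had 0 and 0.0643 FPKM in MH63 panicle, against 70.3 and 76.2 FPKM in ZS97 panicle. In young leaf it was listed at 0 in both MH63 libraries, against 41.0 and 56.2 FPKM in ZS97. In root it had 4.24 and 4.99 FPKM in MH63, against 41.3 and 40.8 FPKM in ZS97, and in mature leaf 0.242 and 0 FPKM in MH63, against 18.3 and 17.7 FPKM in ZS97. The log2 fold change of MH63 over ZS97 was -6.17 in panicle (SE 0.17, adjusted p = 7.78e-09), -2.91 in root (SE 0.17) and -4.09 in mature leaf (SE 0.17, adjusted p = 7.79e-08). The size of the difference varied between tissues by an interaction test. In MH63 the gene met the limit through its root values alone. The p-values in root and of the interaction are thus not given here as evidence of a difference.

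MH04g0578800 was listed at 0 in opposite tissues of the varieties. In young leaf it had 48.2 and 36.6 FPKM in MH63, in panicle 20.2 and 20.1 FPKM, and in root 9.39 and 7.04 FPKM, against 0 in all 6 ZS97 libraries of these tissues. In mature leaf it was at 0 in both MH63 libraries, against 71.0 and 52.8 FPKM in ZS97. Each of its 8 values above 0 was shared with at least 1 other gene of the library. In the same 8 libraries, the values of MH09g0294500 were 2, 4, 10, 8, 7, 6, 1 and 1 times those of MH04g0578800, whole numbers within 0.0001. The values of MH04g0578800 are thus single steps of the scale, as few as 1 fragment per library against 0. It was called in all 4 tissues and was the only member called in both directions, but replicates at the same step have almost no spread, so its p-values are not given here as evidence of a difference. ZS97 mature leaf is the ZS97 group that shares its column numbering with Nip, and the part of the separate quantification in this switch was not tested.

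Another member at 0 in that group was MH02g0487400. It had 15.8 and 8.41 FPKM in MH63 mature leaf, against 0 and 0 FPKM in ZS97 mature leaf (adjusted p = 0.000132). In young leaf it had 27.6 and 20.3 FPKM in MH63, against 27.3 and 14.7 FPKM in ZS97, and it was not called there. Its difference varied with tissue (interaction adjusted p = 0.00558).

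MH12g0255400 was higher in MH63 in all 4 tissues. It had 50.1 and 40.2 FPKM in MH63 panicle, against 10.5 and 16.9 FPKM in ZS97 panicle, and 10.9 and 10.7 FPKM in MH63 root, against 2.60 and 2.39 FPKM in ZS97 root. The log2 fold change was 1.68 in panicle (SE 0.37, adjusted p = 0.0191), where the call was lost in 6 of 21 alternatives. The neighbouring genes MH04g0634600 and MH04g0634700 were both lower in MH63. MH04g0634600 had 7.39 and 5.10 FPKM in MH63 root, against 18.9 and 20.2 FPKM in ZS97 root (log2 fold change -1.52, SE 0.28, adjusted p = 0.00601), a call lost in 2 of 21 alternatives. MH04g0634700 had 4.94 and 4.38 FPKM in MH63 panicle, against 27.1 and 14.7 FPKM in ZS97 panicle (log2 fold change -1.89, SE 0.37, adjusted p = 0.00934), a call lost in 5 of 21.

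The remaining differences were less even. MH07g0327000, a leaf member, had 48.8 and 33 FPKM in MH63 mature leaf, against 9.18 and 10.9 FPKM in ZS97 mature leaf, and 20.6 and 13.4 FPKM in MH63 young leaf, against 6.18 and 2.77 FPKM in ZS97 young leaf. It was called in both leaf tissues, with a log2 fold change of 1.76 in young leaf (SE 0.32, adjusted p = 0.0052) that was lost in 3 of 21 alternatives. MH10g0117400 had 44.1 and 13.4 FPKM in MH63 mature leaf, against 0 and 0 FPKM in ZS97 mature leaf (adjusted p = 0.0295, lost in 5 of 21 alternatives). MH11g0256300 had 61.9 and 114 FPKM in MH63 root, against 0 and 20.0 FPKM in ZS97 root (log2 fold change 4.22, SE 0.99), and was listed at 0 in the other 12 Xian libraries. It met the limits of both varieties through root alone, so its call is given without a p-value. This call was lost in 4 of 21 alternatives. MH03g0131100 had 9.93 and 22.5 FPKM in MH63 root, against 0 and 0 FPKM in ZS97 root, and its ZS97 signal was a single panicle value of 16.4 FPKM. It met the MH63 limit through root alone and all 3 of its values were shared with another gene, so its call in root is given without a p-value. MH05g0319900 had 1.85 and 0 FPKM in MH63 young leaf, against 45.3 and 6.46 FPKM in ZS97 young leaf (log2 fold change -3.46, SE 0.71, adjusted p = 0.012, lost in 3 of 21), while its mature leaf values overlapped.

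Whether the difference between MH63 and ZS97 varied with tissue was tested as an interaction over the 4 tissues. It passed an adjusted p of 0.05 for 20 members, against 14.2% of all genes tested. Without the mature leaf libraries, 8 members passed, and the share of all genes was 4.87%. The part of the separate column numbering of ZS97 mature leaf in this fall was not tested. Single libraries moved the count from 11, without the first ZS97 mature leaf library (9.44% of all genes), to 33, without the second ZS97 panicle library (20.6%).

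The members lay on all 12 chromosomes. By the chromosome in the identifier, chromosomes 2 and 7 had 24 members each, chromosomes 4 and 10 had 22 each, and chromosome 3 had 21. Chromosome 8 had 3 and chromosome 9 had 7. Chromosome 10 held 11% of the members, against 5.01% of all genes at or above the lowest member score, and chromosome 7 held 12%, against 7.84%. Chromosome 8 held 1.5%, against 6.14%, although 22 of the 443 genes that met both limits lie on it, and chromosome 1 held 8.5%, against 14.5%. Members near each other may share 1 stretch of sequence, so they are not independent, and no test was made.

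**Figure D5:**
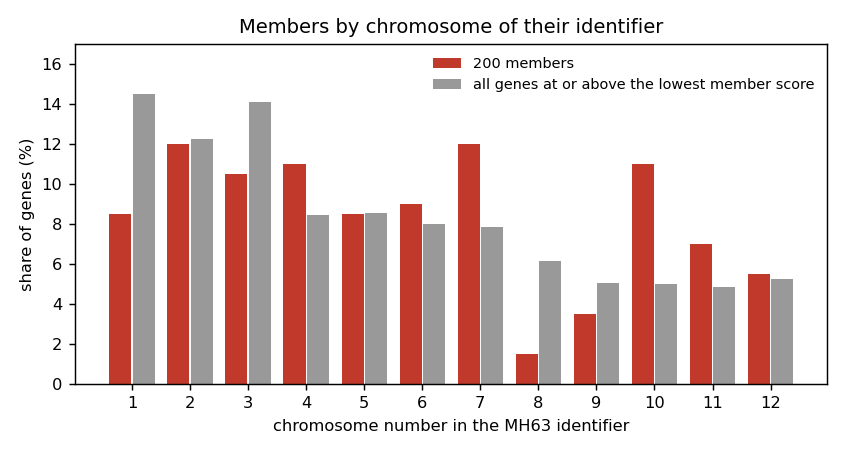
Share of genes (%) by the chromosome number in the MH63 identifier, for the 200 members (red) and all genes at or above the lowest member score of 4.43 FPKM (grey). The members' share is above that of all such genes on chromosomes 7 (12% and 7.84%) and 10 (11% and 5.01%) and below it on chromosomes 1 (8.5% and 14.5%) and 8 (1.5% and 6.14%).

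Some members stood side by side. In the order of the listing, 31 members formed 14 runs of directly adjacent genes, 3 runs of 3 genes and 11 of 2. With gaps of up to 5 listed genes, 41 members (20.5%) fell into 17 blocks of up to 4 members. Of the non-member genes directly next to a member that were expressed in both Xian varieties by the same limit, 14 (8.28%) were also at 0.1 FPKM or less throughout Nip, against 5.54% within 5 listed genes and 1.14% of all genes that were not members. Over all of these adjacent genes, the highest Nip value had a median of 5.69 FPKM. It was 13.9 FPKM within 5 listed genes and 18.7 FPKM over all expressed genes that were not members. These sets were not matched by their level in MH63 and ZS97, and the part of that level in the medians was not tested.

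The block around the top member held leaf genes. MH02g0484600, MH02g0484700, MH02g0484800 and MH02g0485000 lie within 5 listed genes on chromosome 2, and all 4 were highest in leaf. MH02g0484600 had 12.4 and 12.7 FPKM in MH63 young leaf, against 15.4 and 18.7 FPKM in ZS97 young leaf, and was listed at 0 in panicle and root of both. MH02g0484700 had 8.05 and 9.14 FPKM in MH63 young leaf, against 11.9 and 18.3 FPKM in ZS97 young leaf, with the same zeros. MH02g0484800 had 10.7 and 5.80 FPKM in MH63 young leaf, against 9.26 and 9.32 FPKM in ZS97 young leaf, but 3.98 and 1.41 FPKM in MH63 mature leaf, against 0 and 0 FPKM in ZS97 mature leaf. The first 3 were higher on average in young leaf than in mature leaf in both varieties, whereas MH02g0485000 was higher in mature leaf. The gene between them, MH02g0484900, was not expressed in any of the 3 varieties, with group means of at most 0.0171 FPKM.

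Other runs mixed different patterns. On chromosome 10, MH10g0069500, MH10g0069600 and MH10g0069700 were all highest in mature leaf on average in MH63. In ZS97, however, MH10g0069700 averaged 4.95 FPKM in young leaf, against 3.98 FPKM in mature leaf. MH10g0069600 was the strongest, with 57.1 and 39.3 FPKM in MH63 mature leaf, against 44.7 and 36.5 FPKM in ZS97 mature leaf. MH10g0069500 had 12.2 and 11.7 FPKM in MH63 mature leaf, against 7.95 and 6.99 FPKM in ZS97 mature leaf. On chromosome 2, the steady MH02g0219000 lay between MH02g0218900 and MH02g0219100, which were absent from most libraries. MH02g0218900 was above 0 in 1 root library of each variety, with 16.5 FPKM in MH63 and 13.5 FPKM in ZS97. MH02g0219100 had 92.3 and 0 FPKM in MH63 young leaf, against 205 and 147 FPKM in ZS97 young leaf. Of the 17 directly adjacent pairs, 10 shared the tissue of the highest mean in MH63 and 11 did so in ZS97.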

How the data were processed

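Per the study's methods, the authors trimmed reads (Trimmomatic 0.36), aligned them to the genome of MH63 or ZS97 (TopHat2 2.1.0) and estimated gene levels (Cufflinks 2.2.1; the submitters' processing notes give 2.2.5). The deposited values are FPKM per gene and library. They hold no counts. Steps of single fragments can be seen in short genes, but fragment counts were not recovered for all members, so counting intervals and detection limits are not given, and the study's count-based test could not be used.

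Members were found by the stated limits on the 24 libraries, grouped by GEO's labels. The members and lists were chosen with earlier results of these data known. MH63 and ZS97 were compared on log2(FPKM + 1) with limma 3.58.1 in R 4.3.3, with a mean-variance trend, 16 libraries in 8 groups, two-sided tests and Benjamini-Hochberg adjustment. Fold changes on this scale understate those of low genes. Tested were 24461 genes whose mean exceeded 1 FPKM in 1 or more groups, all 200 members among them. An exact permutation test of 2 against 2 libraries cannot go below p = 0.333. The fit was tested on simulated data.

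Named are the 8 highest scores, per tissue up to 3 enriched members and 2 per direction between varieties, the 4 steadiest, the ranks at the limit of 200 and the longest runs (8 genes). MH02g0484900, MH10g0069700 and the genes at the Nip limit were named outside this rule. None of the members' identifiers was matched in the gene table used here (0 of 200), so no names or sequences are given. Alternatives changed the pseudocount, normalization, filter, libraries, replicate block and limits. No 2 libraries held identical values.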

Additional observations from a re-analysis of the deposited data

Results flagged for a closer look

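For 8 of the 43 named members, the difference between MH63 and ZS97 varied with tissue by the interaction test in limma. The adjusted p was 2.10e-08 for MH04g0578800, 4.17e-05 for MH05g0374700, 0.00558 for MH02g0487400, 0.00586 for MH05g0370000, 0.00667 for MH07g0411800, 0.00923 for MH01g0076000, 0.0300 for MH07g0327000 and 0.0489 for MH03g0131100. MH04g0578800 and MH02g0487400 are the members of this list with both ZS97 mature leaf libraries or both MH63 mature leaf libraries at 0 and signal in the other variety. In MH01g0076000, MH07g0411800 and MH05g0370000, the libraries of the varieties did not overlap in the tissue where the gene was enriched. MH03g0131100 had its ZS97 signal in 1 library. The 8 values of MH04g0578800 above 0 were single steps of the FPKM scale, as few as 1 fragment per library. The 3 of MH03g0131100 were shared with other genes of the library. A p for these 2 members would not measure counting error. MH01g0076000 and MH07g0411800 met the limits of both varieties through root alone. MH05g0374700 and MH03g0131100 met the MH63 limit through root alone, and MH03g0131100 met the ZS97 limit through panicle alone. MH05g0370000 and MH04g0578800 met the ZS97 limit through mature leaf alone. The interaction test used the values that chose these members, so their p-values are listed as flags and not as evidence of a difference.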

How the results depend on the processing

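The rule was met by 443 genes, by 382 with a Nip limit of 0 FPKM and by 745 with a limit of 0.5 FPKM. Leaving out 1 Nip library gave 455 to 501 genes and leaving out the shallowest ZS97 panicle library, chosen after seeing the data, 442. With a pseudocount of 0.1, the members higher in MH63 were 1 in panicle and 2 in root. The shares of all genes were 3.25% and 3.70%, above those with a pseudocount of 1 (2.07% and 2.25%). Lower were 6 in root and 10 in mature leaf (1.74% and 4.44% of all genes). With this pseudocount, 8 were enriched in mature leaf (3.49%) and 12 had an interaction (11.4%). With quantile normalization, 1 was higher in panicle and 4 in mature leaf (2.07% and 3.73% of all genes). In this setting, 5 were lower in root (1.19%) and 8 were enriched in mature leaf (3.09%). In fits of 1 tissue, 1 of 154 members tested was lower in panicle (0.875% of all genes) and 6 of 141 in root (1.48%). With 1 fit per variety, 5 were enriched in young leaf (1.29%). Without mature leaf, 8 had an interaction (4.87% of all genes). Leaving out the 81 members split between replicates, a choice made after seeing the data, left 119 members. Of these, 2 were higher in root, 1 was lower in young leaf and 1 in panicle (2.25%, 1.37% and 1.54% of all genes). The cause of these shifts was not tested.

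Leaving out 1 library at a time gave 2 to 4 members higher in MH63 in young leaf, 1 to 13 in panicle, 1 to 5 in root and 7 to 11 in mature leaf. It gave 2 to 4 lower in young leaf, 1 to 7 in panicle, 2 to 4 in root and 4 to 7 in mature leaf. Enriched were 3 to 5 in young leaf, 7 to 12 in panicle, 5 to 7 in root and 3 to 8 in mature leaf, and 11 to 33 had an interaction. The second ZS97 panicle library moved the panicle counts and the interaction most, and the shares of all genes moved too. Without the first MH63 root library, 1 was higher in root, without the first ZS97 young leaf library 8 were enriched in mature leaf, and without the first young leaf or the first mature leaf library of MH63 5 were enriched in young leaf. A lone library left in a group was assumed to vary like the other groups. The ranges are thus not read as results about the members.

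With the replicate number as a block, 21 members had an interaction and the other counts were as in the fit without it. Deviations from the group means, set against each other by replicate number, correlated above 0.1 in 1 of 28 pairs of groups, MH63 and ZS97 young leaf (0.51), and the lowest correlation was -0.18, so the numbers were not taken as pairs. In young leaf, the block left 3 members higher and 3 lower. It fits 1 shift per gene shared by all 8 groups, so it cannot take up a pairing confined to young leaf. The young leaf p-values leave any such pairing out, and its effect was not tested. Of 40 tests of named members, 30 were called under every alternative, 10 lost the call in at least 1, and none reversed. They include the enrichment tests, whose values also scored the members, so the count does not measure how firm the calls are. Among these tests, those between MH63 and ZS97 kept the call throughout only for MH05g0374700, MH02g0487400 and MH04g0578800. The calls of MH04g0578800 rest on single steps of the scale. Calls of members outside these tests were not followed gene by gene.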
